A study of Homo sapiens with 60 samples.

Results

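Coptidis Rhizoma, a berberine-rich rhizome of East Asian medicine, was set against Zizyphi Fructus, the jujube fruit, at the lowest dose of each hot-water extract. The comparison rests on 6 RNA-sequencing libraries of the 60 analysed, 3 treated with Coptidis Rhizoma at 11.6 µg/mL and 3 with Zizyphi Fructus at 20 µg/mL, chosen by the treatment in their labels. All were HT29, an established human colorectal adenocarcinoma line, harvested 24 h after treatment. The medium doses used beside them were 58 µg/mL of Coptidis Rhizoma and 100 µg/mL of Zizyphi Fructus, the high doses 290 and 500 µg/mL, and vehicle was DMSO (0.1% in the sample labels, 2% in the series text). The top dose of Coptidis Rhizoma was the concentration called IC20 in the series text, and its lower doses were dilutions of it, so the extracts were compared at unequal weights and extract and dose cannot be told apart. All 60 libraries carry the same batch name. The sample codes of both extracts begin with 4 and those of vehicle with A1; the labels do not say what this part of the code stands for, and libraries that share it are called a library set here. No label tells whether the extract groups held DMSO. No label tells whether a group's 3 libraries were separate cultures, so the p-values reflect library-to-library spread, part of which may be technical.

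Human mitochondrial DNA encodes the ribosomal RNAs (rRNAs) of the mitochondrial ribosome, mRNAs for subunits of the respiratory chain and ATP synthase, and tRNAs. It is copied into long RNAs that span many genes and are then cut into single ones, so levels of its RNAs depend on cutting and decay as well as on transcription. ATF4 is the transcription factor of the integrated stress response and drives amino acid supply. The aryl hydrocarbon receptor (AhR) and NRF2 drive enzymes that handle foreign and reactive compounds.

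Low-dose Coptidis Rhizoma cells had far more mitochondrial rRNA and less of most mitochondrial mRNAs than low-dose Zizyphi Fructus cells. They also had less TXNIP and ARRDC4, and more RNA of a small group of genes from the ATF4, AhR and NRF2 lists. Of 16608 genes tested with edgeR's quasi-likelihood test, 40 (0.241%) were called at a Benjamini-Hochberg adjusted p below 0.05. Coptidis Rhizoma was higher for 27 of them (0.163%) and lower for 13 (0.0783%). On the mitochondrial chromosome 12 of 15 tested genes were called, and 2 more called genes were nuclear pseudogenes of mitochondrial genes. The remaining 26 were 23 higher and 3 lower nuclear genes. The unadjusted p was below 0.05 for 725 genes, where 830 would be so by chance alone, and the libraries of the extracts did not overlap for 2598 genes (15.6%). At least a doubling was seen for 5 called genes and at least a halving for 8. Without Coptidis Rhizoma low replicate 2, or without Zizyphi Fructus low replicate 2, 24 genes were called, whereas 82 were called with only the libraries compared and 144 without the filter on low counts.

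**Figure D1:**
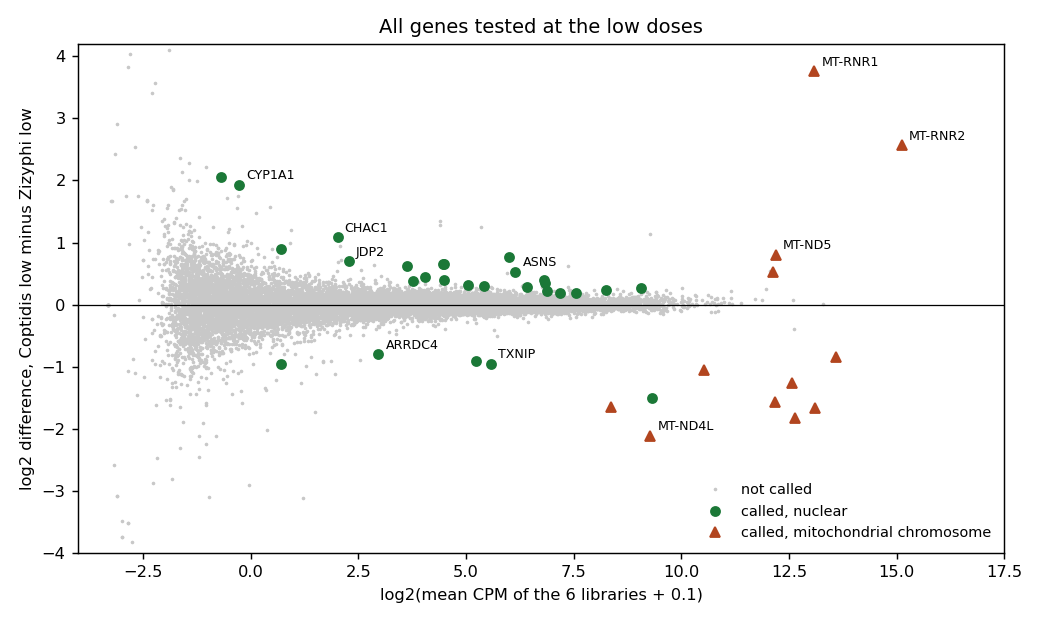
Log2 difference, Coptidis Rhizoma low minus Zizyphi Fructus low, against log2 of the mean counts per 1e6 (CPM) of the 6 libraries plus 0.1; each point is a gene, triangles are called genes of the mitochondrial chromosome and circles called nuclear genes. The called mitochondrial genes stand at the right, at high levels, on both sides of 0, and 29 uncalled genes lie beyond the vertical axis.

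Total counts ran from 25.7 to 33.6 M (M, 1e6 counts) in the Coptidis Rhizoma low libraries and from 16.9 to 30.5 M in those of Zizyphi Fructus low. Markers of colon epithelium summed to between 11900 and 12700 CPM in Coptidis Rhizoma low and between 11600 and 11900 CPM in Zizyphi Fructus low, with none of 12 called. These sums were mostly KRT8 and KRT18, at up to 6600 and 3580 CPM in a library. EPCAM, CDH1, KRT19, KRT20, VIL1 and LGALS4 reached 197 to 609 CPM. CDX1, CDX2, CEACAM5 and CDH17 were low, reaching 1.57, 6.88, 6.92 and 5.87 CPM. Fibroblast markers summed to between 2.25 and 2.46 CPM in Coptidis Rhizoma low and between 2.41 and 2.90 CPM in Zizyphi Fructus low, with COL1A2 at 0. Endothelial markers summed to between 2.28 and 2.66 CPM in Coptidis Rhizoma low and between 2.15 and 2.86 CPM in Zizyphi Fructus low, with CDH5, KDR and EMCN at 0. Immune markers summed to between 14.5 and 15.1 CPM in Coptidis Rhizoma low and between 10.3 and 13.4 CPM in Zizyphi Fructus low, mostly CD68 and CD14, with CD3D and MS4A1 at 0. In total RNA of a culture, fewer cells with an RNA and less of it per cell cannot be told apart.

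MT-RNR1, the 12S rRNA (mitochondrial chromosome 648-1601, GRCh38), was at 16100, 16800 and 15800 CPM in the Coptidis Rhizoma low libraries, against 1170, 1210 and 1210 CPM in those of Zizyphi Fructus low. The groups lie far apart, and their log2 difference was 3.76 ± 0.09 (approximate SE here and below), a 13.6-fold higher level (edgeR quasi-likelihood, adjusted p = 1.98e-35). MT-RNR2, the 16S rRNA (1671-3229), was at 62000, 62000 and 59300 CPM in Coptidis Rhizoma low, against 10300, 10300 and 10100 CPM in Zizyphi Fructus low. Its log2 difference was 2.57 ± 0.08, or 5.95-fold (edgeR quasi-likelihood, adjusted p = 1.32e-30). The gap was thus larger for 12S than for 16S, although 16S was the more abundant per length in both groups, with 39186 and 6588 CPM per kb in Coptidis Rhizoma low and Zizyphi Fructus low, against 17018 and 1252 CPM per kb for 12S.

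Among the 13 mitochondrial mRNAs 8 were called lower and 2 higher in Coptidis Rhizoma low (median log2 difference -1.06, against 0.00 over all genes tested). The shares of all genes were 0.0783% lower and 0.163% higher. MT-ND4, a subunit of respiratory complex I, was at 2710, 2920 and 2770 CPM in Coptidis Rhizoma low, against 8750, 10800 and 10200 CPM in Zizyphi Fructus low (log2 difference -1.83 ± 0.14). MT-CO3, a subunit of cytochrome c oxidase, was at 4200, 4380 and 4090 CPM in Coptidis Rhizoma low, against 13900, 12900 and 13400 CPM in Zizyphi Fructus low (log2 difference -1.66 ± 0.12). For both genes every Coptidis Rhizoma library was below every Zizyphi Fructus library. The other cytochrome c oxidase subunits, MT-CO2 and MT-CO1, had log2 differences of -1.27 ± 0.14 and -0.85 ± 0.08. The ATP synthase subunits MT-ATP6 and MT-ATP8 had -1.57 ± 0.16 and -1.65 ± 0.34, and the complex I subunits MT-ND4L and MT-ND3 had -2.11 ± 0.21 and -1.06 ± 0.15. MT-ATP8 overlaps MT-ATP6 and MT-ND4L overlaps MT-ND4 on the chromosome, and the pseudogenes MTATP6P1 (-1.50 ± 0.19) and MTCO1P12 (-0.90 ± 0.17) resemble MT-ATP6 and MT-CO1, so reads of these pairs cannot be told apart with certainty. MT-ATP8 was not called without any one of the Coptidis Rhizoma low libraries or without Zizyphi Fructus low replicate 2 (edgeR quasi-likelihood, adjusted p between 0.0638 and 0.105).

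The called mRNAs that were higher were MT-ND5 and MT-ND2. MT-ND5 (12337-14148), a further complex I subunit, was at 6350, 5830 and 5730 CPM in Coptidis Rhizoma low, against 3470, 3460 and 3330 CPM in Zizyphi Fructus low. Each Coptidis Rhizoma library was above each Zizyphi Fructus library, with a log2 difference of 0.80 ± 0.12 (edgeR quasi-likelihood, adjusted p = 5.29e-05). MT-ND2 (4470-5511) was at 5400, 5370 and 5040 CPM in Coptidis Rhizoma low, against 3390, 3800 and 3760 CPM in Zizyphi Fructus low (log2 difference 0.53 ± 0.11, edgeR quasi-likelihood, adjusted p = 0.0140). That call was lost without replicate 1 or 2 of Coptidis Rhizoma low, or 1 or 2 of Zizyphi Fructus low (adjusted p between 0.0611 and 0.204). MT-ND1 (log2 difference 0.55 ± 0.16), MT-ND6 (1.14 ± 0.30) and MT-CYB (-0.40 ± 0.12) were not called. MT-ND6 is the mRNA of the opposite strand, and whether reads were counted by strand is not given in the sources used here. In genome order, the difference ran from the strongly higher rRNAs through MT-ND1 and MT-ND2 to the lower genes from MT-CO1 to MT-ND4, was above 0 again at MT-ND5 and MT-ND6, and was below 0 at the last gene, MT-CYB.

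**Figure D2:**
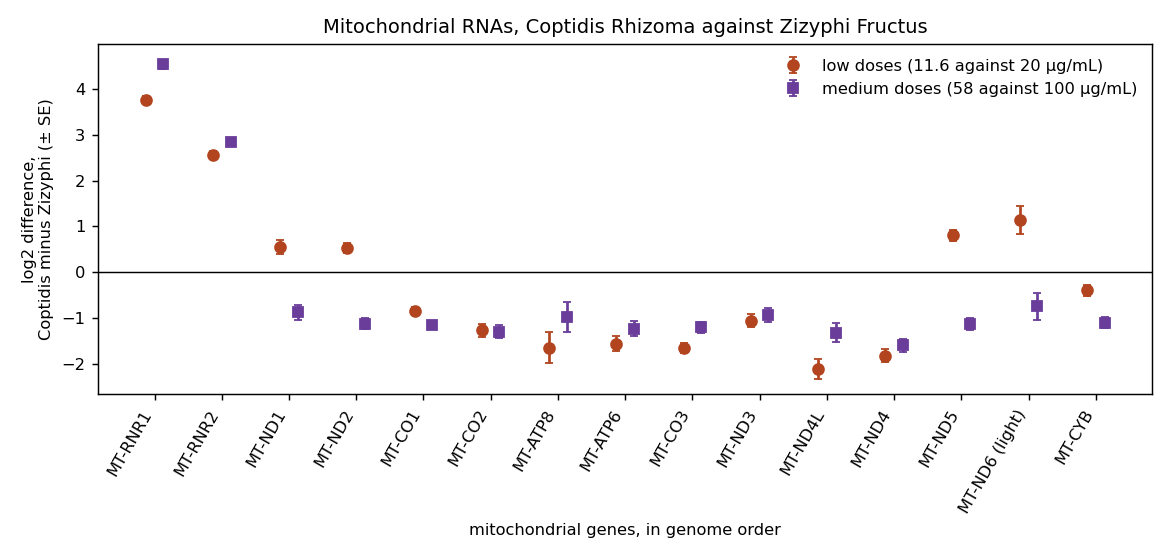
Log2 difference between the extracts, Coptidis Rhizoma minus Zizyphi Fructus, with its approximate SE, for the 15 tested genes of the mitochondrial chromosome in genome order; circles are the low doses and squares the medium doses, and MT-ND6 is on the other (light) strand. Both rRNAs are above 0 at both doses, whereas MT-ND1, MT-ND2, MT-ND5 and MT-ND6 are above 0 at the low and below 0 at the medium doses.

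Together, mitochondrial rRNA made up 7.55% ± 0.156 of counts in Coptidis Rhizoma low and 1.17% ± 0.00577 in Zizyphi Fructus low (SD, n = 3 each). Mitochondrial mRNA made up 4.47% ± 0.0603 in Coptidis Rhizoma low and 7.78% ± 0.243 in Zizyphi Fructus low. The ratio of rRNA to mRNA counts was 1.71, 1.69 and 1.67 in the Coptidis Rhizoma low libraries, against 0.157, 0.146 and 0.147 in those of Zizyphi Fructus low. All 51 libraries without Coptidis Rhizoma had ratios between 0.124 and 0.176. The ratio was 1.69 ± 0.0200, 2.96 ± 0.129 and 0.595 ± 0.0194 at the low, medium and high doses of Coptidis Rhizoma, against 0.150 ± 0.00608, 0.144 ± 0.00321 and 0.154 ± 0.0148 at those of Zizyphi Fructus and 0.147 ± 0.00700 in vehicle. The highest ratio was therefore at the medium dose, not at the high one. The labels name an mRNA library made from total RNA with no selection step, and whether the capture of rRNA differed between libraries was not tested.

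**Figure D3:**
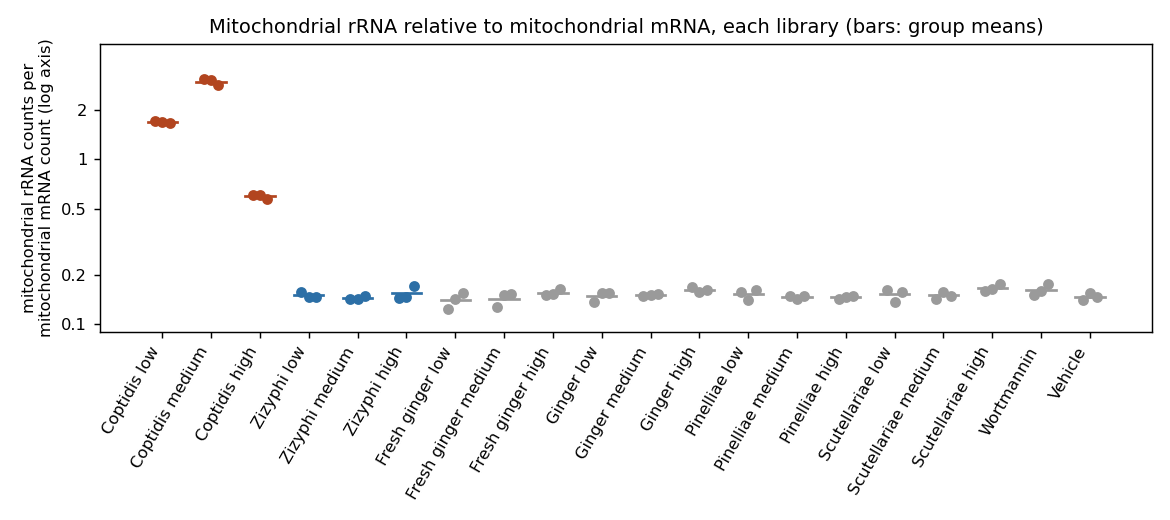
Mitochondrial rRNA counts per mitochondrial mRNA count on a log axis, for each of the 60 libraries (points) in 20 groups, with group means as bars; Coptidis Rhizoma is in red, Zizyphi Fructus in blue and all other groups in grey. The 9 Coptidis Rhizoma libraries lie apart from the other 51, which stay between 0.124 and 0.176.

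Lists of nuclear genes that serve the mitochondrion had no called member, where 0.241% of all genes were called, so a count of 0 in lists of this size is near the background. Of 29 nuclear genes of the respiratory chain 0 were called by edgeR (0 at unadjusted p under 0.05), with a median log2 difference of 0.07 and 27 of them above 0. Of 17 genes that copy, process or stabilise mitochondrial RNA 0 were called (0 at unadjusted p under 0.05), with a median of 0.00. They include the polymerase POLRMT (log2 difference 0.07), the packaging factor TFAM (-0.06) and the mRNA-binding protein LRPPRC (0.00).

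TXNIP, which binds thioredoxin and restrains glucose uptake, was the nuclear gene with the smallest p. It was at 32.5, 33.3 and 31.2 CPM in Coptidis Rhizoma low, against 61.7, 62.1 and 63.8 CPM in Zizyphi Fructus low, with a log2 difference of -0.95 ± 0.06 (edgeR quasi-likelihood, adjusted p = 2.47e-17). Its arrestin-family relative ARRDC4 was at 6.49, 5.58 and 4.76 CPM in Coptidis Rhizoma low, against 9.62, 9.92 and 9.97 CPM in Zizyphi Fructus low (log2 difference -0.80 ± 0.11, adjusted p = 1.15e-06). Neither gene overlapped between the groups. They were the 2 called of 8 tested genes of glucose sensing. Among all genes tested, 0.0783% were called lower. MLXIP, the glucose-responsive factor also called MondoA (-0.09), and its partner MLX (0.04) were not called. Of 21 glycolysis and glucose uptake genes 0 were called by edgeR, 2 having an unadjusted p under 0.05, with a median log2 difference of 0.03.

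In the ATF4 list, which holds genes of amino acid supply and of the stress response, 7 of 23 tested genes were called, all higher, with a median log2 difference of 0.18. Over all genes tested, 0.163% were called higher. The lists were chosen with earlier results of these data known. ASNS, which makes asparagine, was at 85.9, 85.6 and 79.8 CPM in Coptidis Rhizoma low, against 56.5, 59.0 and 58.3 CPM in Zizyphi Fructus low (log2 difference 0.53 ± 0.06, edgeR quasi-likelihood, adjusted p = 1.23e-08). CHAC1, which breaks down glutathione, was at 5.64, 5.46 and 5.04 CPM in Coptidis Rhizoma low, against 2.41, 2.78 and 2.38 CPM in Zizyphi Fructus low (log2 difference 1.09 ± 0.16). The groups were apart for both genes. The serine synthesis enzymes PSAT1 and PHGDH had log2 differences of 0.35 ± 0.05 and 0.32 ± 0.08, and JDP2, a repressor of the AP-1 family, had 0.70 ± 0.12. DDIT4, an inhibitor of mTORC1, and the pseudokinase TRIB3 had 0.39 ± 0.08 and 0.29 ± 0.07. ATF4 itself (0.23, adjusted p = 0.0990) was not called, nor was DDIT3 (0.17), which encodes CHOP. Of 18 tRNA synthetases, GARS1 (0.18 ± 0.04) and AARS1 (0.19 ± 0.04) were called, and of 11 amino acid transporters, SLC7A5 (0.24 ± 0.05), the leucine carrier. ASNS, PSAT1, CHAC1 and JDP2 were called under every alternative tried. The other 3 were less stable, and the list had 4 called members without Coptidis Rhizoma low replicate 2 or without Zizyphi Fructus low replicate 2. DDIT4 was lost without either of these libraries or Zizyphi Fructus low replicate 1 (edgeR quasi-likelihood, adjusted p up to 0.0989). TRIB3 was lost without any library but Zizyphi Fructus low replicate 1 (up to 0.399), and PHGDH (up to 0.257) and SLC7A5 (up to 0.528) without any one of the 6. GARS1 (up to 0.11) and AARS1 (up to 0.266) were not called without replicate 2 of either extract, and AARS1 also not without Coptidis Rhizoma low replicate 1. With only library set 4 fitted, with or without the replicate block, none of these 6 was called (edgeR quasi-likelihood, adjusted p between 0.234 and 0.976). GARS1 and AARS1 were also not called without the filter on low counts (0.511 and 0.405), SLC7A5 not with the size factors of DESeq2 (0.0618), and PHGDH and SLC7A5 not when mitochondrial genes were left out (0.0509 and 0.0899).

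RefSeq (GRCh38.p14) gave promoter windows, from 250 bases before to 50 after a start, for 21 of the 40 called genes, 30 windows in all. The letters TGATGNAA, the core of sites bound by ATF4 with a C/EBP partner, were searched on both strands, as were GCGTG, the core that AhR binds, and the E-box CACGTG. The first were present in windows of 5 called genes, all from the ATF4 and tRNA synthetase lists, and in 5 of the 30 windows, against 3.62% of all 35116 windows. The stretches below show these matches in capitals with up to 46 bases on either side, on the strand of the gene, and end no later than the base before the start. In ASNS and JDP2 the capitals read as the motif, and in CHAC1, GARS1 and AARS1 as its reverse complement.
ASNS: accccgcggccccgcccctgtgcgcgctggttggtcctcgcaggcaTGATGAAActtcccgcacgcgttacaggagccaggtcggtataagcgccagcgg
CHAC1: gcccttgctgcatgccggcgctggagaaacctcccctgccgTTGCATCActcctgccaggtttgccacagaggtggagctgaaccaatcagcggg
JDP2: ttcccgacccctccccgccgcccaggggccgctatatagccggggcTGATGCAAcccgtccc
GARS1: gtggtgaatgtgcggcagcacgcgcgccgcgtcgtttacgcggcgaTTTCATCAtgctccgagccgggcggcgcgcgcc
AARS1: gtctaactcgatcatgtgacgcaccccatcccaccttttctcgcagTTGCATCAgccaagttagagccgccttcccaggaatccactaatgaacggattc
They lie at chr7:97872423-97872522 (ASNS, minus strand), chr15:40953221-40953315 (CHAC1, plus), chr14:75427960-75428021 (JDP2, plus), chr7:30594799-30594877 (GARS1, plus) and chr16:70289640-70289739 (AARS1, minus). The matches begin 68, 209, 16, 33 and 187 bases before the start, in the same order. GCGTG was in windows of 18 of the 21 genes (21 of the 30 windows, of which 3 are overlapping windows of TRIB3), against 36.5% of all windows. Of the 5 called AhR members CYP1A1, NQO1 and SLC7A5 had a window, each with a match. CACGTG was in 3 of the 30 windows (ALDH3A2, ARRDC4 and SLC7A5), against 7.26% of all windows, and not in that of TXNIP. Only these exact letters were searched, so a variant E-box would not be found. A match is a run of letters, and binding was not measured.

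**Figure D4:**
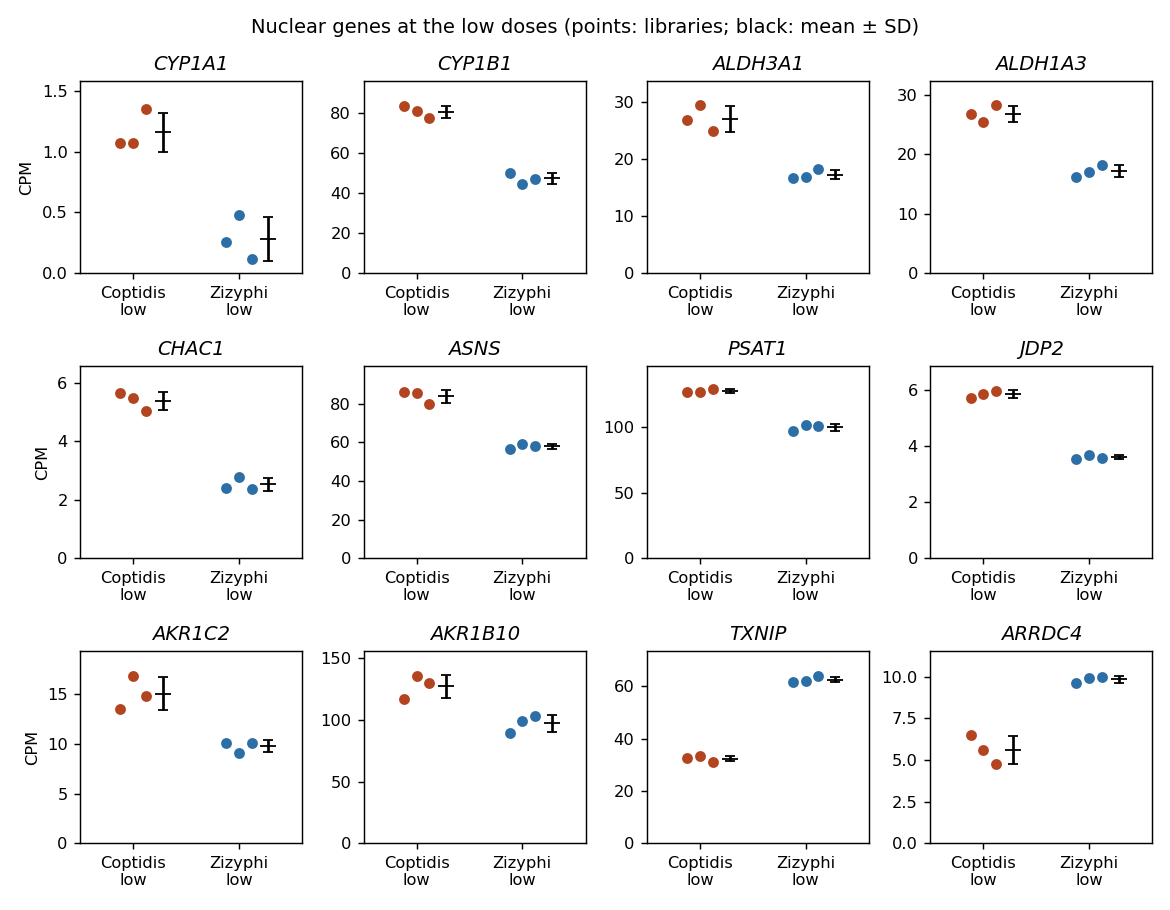
Counts per 1e6 of 12 called nuclear genes in each Coptidis Rhizoma low and Zizyphi Fructus low library (points), with the mean ± SD of 3 libraries in black and each axis starting at 0. The libraries of the extracts do not overlap for any of the 12 genes; TXNIP and ARRDC4 are lower and the other 10 higher in Coptidis Rhizoma low.

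In the AhR list 5 of 10 tested genes were called, all higher (median log2 difference 0.25), where 0.163% of all genes were called higher. CYP1B1, a cytochrome P450 that oxidises polycyclic compounds, was at 83.5, 81.3 and 77.5 CPM in Coptidis Rhizoma low, against 50.2, 44.8 and 47.3 CPM in Zizyphi Fructus low (log2 difference 0.77 ± 0.08, edgeR quasi-likelihood, adjusted p = 4.66e-09). Its relative CYP1A1, the classic AhR target, was at only 1.07, 1.07 and 1.35 CPM in Coptidis Rhizoma low, against 0.257, 0.476 and 0.116 CPM in Zizyphi Fructus low (log2 difference 1.93 ± 0.32, adjusted p = 0.000196). The aldehyde dehydrogenase ALDH3A1 had a log2 difference of 0.65 ± 0.10, and the quinone reductase NQO1 had 0.26 ± 0.06. SLC7A5 is the fifth, and TIPARP (0.31) and AHRR (-0.32), which restrain the receptor, were not called. NQO1 and SLC7A5 stand in other lists too. Zizyphi Fructus low had the lowest mean of CYP1A1, ALDH3A1 and NQO1 among the 17 groups without Coptidis Rhizoma, but not of CYP1B1 or SLC7A5. Without Coptidis Rhizoma low replicate 2, or without replicate 1 or 2 of Zizyphi Fructus low, 3 of the list were called, NQO1 being lost in each case (edgeR quasi-likelihood, adjusted p up to 0.188) and also with only library set 4 (up to 0.969).

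In the NRF2 list 4 of 24 genes were called, all higher, where 0.163% of all genes were called higher. Of the 24, 23 had a log2 difference above 0 (median 0.18). AKR1B10, an aldo-keto reductase that disposes of carbonyls, was at 117, 135 and 130 CPM in Coptidis Rhizoma low, against 89.6, 99.0 and 103 CPM in Zizyphi Fructus low (log2 difference 0.39 ± 0.07, edgeR quasi-likelihood, adjusted p = 0.000714). AKR1C2 and AKR1C1, close copies between which reads may be divided, had 0.63 ± 0.12 and 0.44 ± 0.10, and NQO1 is the fourth. SLC7A11 (0.28), HMOX1 (0.32) and GCLC (0.16), which supply cystine, degrade haem and start glutathione synthesis, were not called. AKR1C2 was lost without replicate 2 of either extract (edgeR quasi-likelihood, adjusted p up to 0.0747), and AKR1C1 without any library but Zizyphi Fructus low replicate 3 (up to 0.611). The list had 1 called member without Coptidis Rhizoma low replicate 2 and 1 without Zizyphi Fructus low replicate 2, 2 without Zizyphi Fructus low replicate 1, and 0 when only library set 4 was fitted. Against vehicle, which has another sample code, 3 of the list were called higher in Coptidis Rhizoma low and 0 in Zizyphi Fructus low. The shares of all genes called higher were 0.223% and 0.00602%, so the 0 is near the background. In these comparisons AKR1B10 had 0.17 and -0.23, NQO1 0.17 and -0.10 (neither gene called), and AKR1C2 0.57 (called) and -0.06. Of the 17 groups without Coptidis Rhizoma, Zizyphi Fructus low had the lowest mean of AKR1B10 and NQO1, but not of AKR1C2 or AKR1C1.

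Outside the lists 7 nuclear genes were called. ALDH1A3, which makes retinoic acid, was at 26.8, 25.5 and 28.3 CPM in Coptidis Rhizoma low, against 16.2, 17.1 and 18.3 CPM in Zizyphi Fructus low (log2 difference 0.65 ± 0.08, edgeR quasi-likelihood, adjusted p = 3.17e-08). EREG, a ligand of the EGF receptor, had 0.29 ± 0.06, the fatty aldehyde dehydrogenase ALDH3A2 had 0.21 ± 0.05 and TRIM16L, which resembles TRIM16, had 0.38 ± 0.09. The rhomboid-family gene RHBDL1 (0.89 ± 0.20) and the unnamed ENSG00000281383 (2.06 ± 0.49) were higher at under 3 CPM, and RASGEF1B, an exchange factor of Ras-family proteins, was lower (-0.96 ± 0.21). RASGEF1B was at 1.07, 0.950 and 1.03 CPM in Coptidis Rhizoma low, against 1.32, 2.10 and 2.72 CPM in Zizyphi Fructus low, so the spread lay in the Zizyphi Fructus libraries. Of the 17 groups without Coptidis Rhizoma, Zizyphi Fructus low had the lowest mean of ALDH1A3, ALDH3A2, RHBDL1 and ENSG00000281383 and the highest of RASGEF1B. That was not so for EREG or TRIM16L. Of these 7, only ALDH1A3 kept the call without each single library. RHBDL1 lost it without any one of the 6 (edgeR quasi-likelihood, adjusted p up to 0.209), and EREG without replicate 1 or 2 of either extract (up to 0.210). TRIM16L lost it without any library but Zizyphi Fructus low replicate 3 (up to 0.235), RASGEF1B without any but Zizyphi Fructus low replicate 1 (up to 0.349), ALDH3A2 without any but Coptidis Rhizoma low replicate 1 (up to 0.243) and ENSG00000281383 without any but Coptidis Rhizoma low replicate 3 (up to 0.888). With only library set 4 fitted, with or without the replicate block, RHBDL1, RASGEF1B, ALDH3A2 and ENSG00000281383 were not called (edgeR quasi-likelihood, adjusted p between 0.234 and 0.742). RHBDL1, RASGEF1B and ENSG00000281383 were also not called with only the libraries compared (up to 0.114), ALDH3A2 not without the filter on low counts (0.178), and ALDH3A2 and ENSG00000281383 not when mitochondrial genes were left out (0.0573 and 0.0734).

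Of the 46 lists 39 had no called member by edgeR. They include cholesterol synthesis, in which 21 of 24 genes had a log2 difference below 0 (median -0.09, 9 lower at unadjusted p under 0.05) and the enzyme SQLE had -0.13. Interferon response (median -0.09), DNA replication (0.01), mitosis (0.01), chaperones of the endoplasmic reticulum (-0.08) and cytosolic ribosomal proteins (0.10) had none called either. All 27 ribosomal protein genes and all 15 host transcripts of small nucleolar RNAs had a log2 difference above 0. A direction shared by most members was thus not particular to the NRF2 or cholesterol lists. At the medium doses, where 2.57% of all genes were called lower, 16 of the 24 cholesterol genes were, SQLE having -0.36.

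The medium doses share no library with the low ones. There Coptidis Rhizoma differed from Zizyphi Fructus in 1030 genes (6.20%), 603 higher (3.63%) and 427 lower (2.57%). Of the 40 genes called at the low doses 37 (92.5%) were called at the medium doses, which is 3.59% of those called there, and 35 had the same direction. MT-ND5 and MT-ND2 had the opposite one. MT-ATP8, RASGEF1B and ENSG00000281383 were not called at the medium doses. Zizyphi Fructus medium replicate 2 stood apart on a principal component and had the fewest counts of that group, 13.2 M. Without it 581 genes were called at the medium doses, and the counts of 37 and 35 were the same. The medium count was 582 without Coptidis Rhizoma medium replicate 2 and 683 without its replicate 3.

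The difference between the extracts itself changed with the dose level for 76 genes (0.458%), 61 upward (0.367%) and 15 downward (0.0903%), and 18 of the 40 were among them. MT-ND5 was at 1770, 1730 and 1650 CPM in Coptidis Rhizoma medium, against 3720, 3990 and 3600 CPM in Zizyphi Fructus medium (log2 difference -1.13 ± 0.12). All Coptidis Rhizoma low libraries exceeded the range of the 51 libraries without that extract (2100 to 4120 CPM), and all its medium libraries were below that range. The medium difference minus the low one was -1.94 ± 0.18 for MT-ND5 (edgeR quasi-likelihood, adjusted p = 1.14e-10), -1.65 ± 0.16 for MT-ND2 and -1.43 for MT-ND1. For MT-RNR1 it was 0.79 ± 0.12, with a log2 difference of 4.55 at the medium doses, and MT-RNR2 was not called for a change (0.27 ± 0.11). MT-CO3 and MT-ND4 were not called for one either, with medium differences of -1.21 and -1.60.

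ASNS and the other 6 members of the ATF4 list called at the low doses diverged further at the medium doses. ASNS was at 199, 201 and 204 CPM in Coptidis Rhizoma medium, against 55.2, 62.2 and 59.7 CPM in Zizyphi Fructus medium, and the medium difference minus the low one was 1.24 ± 0.08 (edgeR quasi-likelihood, adjusted p = 2.34e-15). It was 1.73 ± 0.22 for CHAC1, 1.24 ± 0.12 for DDIT4 and 0.90 ± 0.07 for PSAT1. In the ATF4 list 21 of 23 genes were called higher at the medium doses, where 3.63% of all genes were. CYP1A1 was at 12.6, 10.8 and 10.5 CPM in Coptidis Rhizoma medium, against 0.396, 0.604 and 0.175 CPM in Zizyphi Fructus medium, a change of 3.02 ± 0.51 (adjusted p = 0.000214) that was not called without Zizyphi Fructus low replicate 2 (2.50, adjusted p = 0.105). TXNIP was at 22.9, 21.5 and 21.7 CPM in Coptidis Rhizoma medium, against 62.7, 64.2 and 58.3 CPM in Zizyphi Fructus medium, a change of -0.53 ± 0.09.

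Several members did not follow the dose in one direction. TXNIP averaged 32.3, 22.0 and 154 CPM at the low, medium and high doses of Coptidis Rhizoma, against 62.5, 61.7 and 60.2 CPM at those of Zizyphi Fructus and 59.7 CPM in vehicle. The lower level thus held for the low and medium doses only, and the high dose was above all of these groups. ARRDC4 averaged 28.6 CPM at the high dose of Coptidis Rhizoma, against 9.53 CPM at that of Zizyphi Fructus. MT-RNR1 averaged 2520 CPM at the high dose of Coptidis Rhizoma, against 1370 CPM at that of Zizyphi Fructus and 1360 CPM in vehicle. In Coptidis Rhizoma the levels of ASNS and CYP1A1 were ordered by dose, ASNS reaching 725 CPM and CYP1A1 196 CPM at the high dose of Coptidis Rhizoma, against 62.3 and 0.370 CPM at that of Zizyphi Fructus. Zizyphi Fructus high replicate 3 stood apart from its group on a principal component. It had 8.24% of counts in ribosomal protein genes, against 5.22% and 5.65% in replicates 1 and 2.

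**Figure D5:**
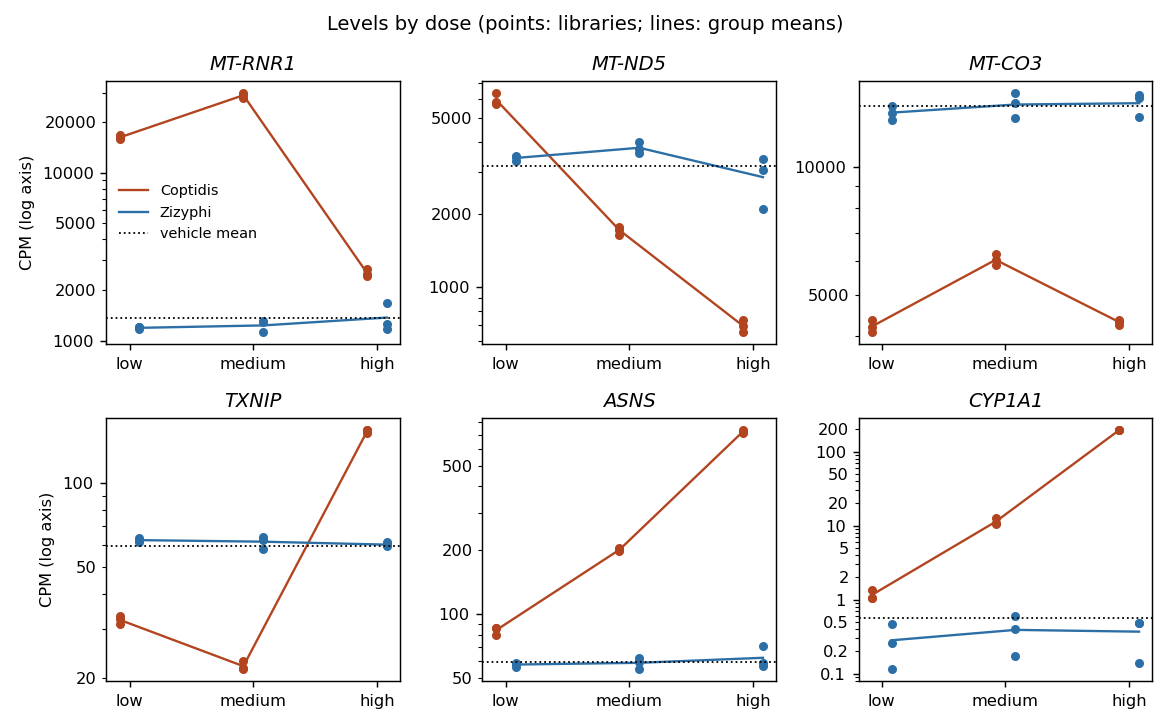
Counts per 1e6 on log axes at the low, medium and high doses of Coptidis Rhizoma (red) and Zizyphi Fructus (blue), with each library as a point, lines through group means and the vehicle mean dotted. MT-RNR1 is highest at the medium dose of Coptidis Rhizoma, MT-ND5 is above Zizyphi Fructus at the low dose and below it at the others, TXNIP is below it at the low and medium doses and above it at the high dose, and ASNS and CYP1A1 are ordered by dose in Coptidis Rhizoma.

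Each low dose was also set against vehicle, comparisons that share libraries with the one between extracts and with each other. Vehicle held DMSO and has another sample code, so extract, solvent and library set cannot be told apart in them. Vehicle replicate 1 stood apart from its group on a principal component. It had 6.93% of counts in ribosomal protein genes, against 5.86% and 5.59% in replicates 2 and 3. Coptidis Rhizoma low differed from vehicle in 66 genes (0.397%), 37 higher (0.223%) and 29 lower (0.175%), and in 33 without vehicle replicate 1, 34 without Coptidis Rhizoma low replicate 3, 41 without its replicate 1 and 42 without vehicle replicate 2. Zizyphi Fructus low differed in 2 genes (0.0120%), KCNE3 higher (0.28, 0.00602% of genes) and SLC2A1 lower (-0.18, 0.00602%), while 3100 genes had an unadjusted p under 0.05 and the Wald test of DESeq2 called 94. The log2 difference of MT-RNR1 from vehicle was 3.57 in Coptidis Rhizoma low and -0.19 in Zizyphi Fructus low, and that of TXNIP was -0.88 in Coptidis Rhizoma low and 0.07 in Zizyphi Fructus low. ALDH3A1 stood at 0.18 in Coptidis Rhizoma low and -0.47 in Zizyphi Fructus low, neither called, and CYP1A1 at 1.02 and -0.91, again neither called. For both of these, vehicle lay between the extracts. Among other called genes, it also lay between them for TRIB3 (0.07 in Coptidis Rhizoma low, -0.23 in Zizyphi Fructus low) and AKR1B10 (0.17, -0.23). The same held for NQO1 (0.17, -0.10), EREG (0.14, -0.15) and RHBDL1 (0.29, -0.60), and none of these genes was called against vehicle. It did not hold for all, AARS1 being above vehicle in both (0.22, called, and 0.03).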

How the data were processed

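HT29 libraries (directional kit, reads of 100 bp, per the labels' protocols) are held in a table of expected counts per gene that the authors deposited. The submitters' processing notes name GRCh38 as the build, RSEM 1.3.3, STAR 2.7.3a, the trimmer Trim Galore 0.6.5 and the read check FastQC 0.11.9. The annotation and strand setting are not given in the sources used here. Non-whole entries, 8.75% of the table, were rounded. It held 60675 genes, and 210 further columns belonging to other samples were left out. Names came from a reference table (56558 IDs) or GENCODE release 29 (497), and 3620 IDs had none. Positions are those of release 29. The 60 libraries held 11.1 to 34.4 M (1e6) counts, and among the 6 low-dose ones the smallest chi-square per gene within a group was 2.56, so none of these libraries repeats another.

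The model was edgeR 4.0.16 under R 4.3.3 (TMM scaling, filterByExpr, robust quasi-likelihood, 1 coefficient for each of 20 groups, 40 residual degrees of freedom, common dispersion 0.004433). Each comparison was adjusted by Benjamini-Hochberg over its 16608 genes, and a gene was called below 0.05. A standard error is the absolute log2 difference divided by the square root of its F statistic, and is approximate. CPM are mean and SD of 3 libraries, scaled by total count times TMM factor. The script was tested on simulated data. For Coptidis Rhizoma low against Zizyphi Fructus low it recovered 28% of 50 genes changed 1.25-fold and 62% of 50 changed 1.5-fold. It recovered 68% of 50 changed 2-fold and 92% of 50 changed 4-fold. Small differences, and also some of 2-fold or more, can therefore go uncalled. Of 16408 unchanged genes 4 were called.

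Named genes were the largest differences in each direction, up to 14, among called genes with at least 5 CPM and groups that did not overlap. Fewer than 14 lower genes qualified, so all of those were named. Up to 3 per list by smallest p were added. The remaining called genes, and other list members given as examples, were chosen after their values were seen. The members and the gene lists were chosen with earlier results of these data known. Alternatives were the size factors and the Wald test of DESeq2 1.42.0, no filter on low counts, only the libraries compared, only library set 4, the replicate number as a block, and leaving out each library; leaving out mitochondrial genes and their pseudogenes was added after the data were seen.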

Additional observations from a re-analysis of the deposited data

Results flagged for a closer look

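The difference between Coptidis Rhizoma and Zizyphi Fructus was not the same at the low and medium doses for 76 genes, by a test of the medium difference minus the low one (edgeR quasi-likelihood, adjusted over 16608 genes; 55 to 67 when 1 library was left out). Values below are that change on the log2 scale. Among mitochondrial RNAs it was -1.94 for MT-ND5, -1.65 for MT-ND2, -1.43 for MT-ND1, -1.89 for MT-ND6 and -0.70 for MT-CYB, and 0.79 for MT-RNR1. The 3 complex I mRNAs MT-ND5, MT-ND2 and MT-ND1 were called in all 20 fits made, MT-ND6 in 15 and MT-CYB in 9 (adjusted p up to 0.266). MT-ND6 was lost without Coptidis Rhizoma low replicate 3, Coptidis Rhizoma medium replicate 3, Zizyphi Fructus low replicate 1 or 2, or Zizyphi Fructus medium replicate 2 (edgeR quasi-likelihood, adjusted p up to 0.0982).

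In the ATF4 list the change was 1.73 for CHAC1, 1.24 for ASNS, 1.24 for DDIT4, 0.92 for JDP2, 0.90 for PSAT1, 0.74 for TRIB3 and 0.56 for PHGDH. It was 0.52 for the amino acid transporter SLC7A5, and 0.41 and 0.40 for the tRNA synthetases GARS1 and AARS1. Among genes of foreign-compound and aldehyde metabolism it was 3.02 for CYP1A1, 0.91 for CYP1B1 and 0.65 for ALDH1A3. It was -0.53 for TXNIP, whose low-dose difference was also below 0, and -2.91 for ENSG00000281383, which stayed under 3 CPM and was called in 11 of 21 fits. CYP1A1 was not called without Zizyphi Fructus low replicate 2 (2.50, adjusted p = 0.105), and PHGDH not in the fits of library set 4 alone.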

How the results depend on the processing

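Of the 40 genes called between the low doses, 20 were called under every alternative that gave an adjusted p, and no called gene changed direction. Among the 20 were TXNIP, ARRDC4, CYP1B1, CYP1A1, ALDH1A3, ALDH3A1, ASNS, PSAT1, CHAC1, JDP2, both mitochondrial rRNAs, MT-CO1, MT-CO2, MT-CO3, MT-ND3, MT-ND4, MT-ND5 and MT-ATP6. The values below are counts of genes called. Without the filter on low counts they were 144 between the low doses, 464 for Coptidis Rhizoma low against vehicle, 1352 for Zizyphi Fructus low against vehicle and 151 for medium minus low. With only the libraries compared they were 82 at the low doses, 1565 at the medium doses, 25 and 4 for Coptidis Rhizoma low and Zizyphi Fructus low against vehicle, and 119 for medium minus low. With only library set 4 they were 28 at the low doses, 568 at the medium doses and 49 for medium minus low. With DESeq2 size factors Zizyphi Fructus low against vehicle had 1, which was higher, and with the DESeq2 Wald test 94. Without mitochondrial genes and their pseudogenes there were 22 at the low doses, all among the 40, 41 for Coptidis Rhizoma low against vehicle and 1 for Zizyphi Fructus low against vehicle. Leaving out 1 library gave 24 to 34 at the low doses, 581 to 864 at the medium doses, 33 to 55 and 1 to 4 for Coptidis Rhizoma low and Zizyphi Fructus low against vehicle, and 55 to 67 for medium minus low. The causes were not tested. The replicate block over all libraries gave 43 at the low doses, and within set 4 it gave 28 at the low doses, 492 at the medium doses and 43 for medium minus low. Same-numbered low-dose libraries correlated at 0.0517 to 0.0779 after group means were removed, below the 0.1 set for pairing, so they were not treated as pairs. Each nevertheless correlated best with its own number, other pairs being at -0.0537 to -0.0106. That is a hint from the data and not the design, and whether the libraries were paired is not known. Genes under about 1 CPM, such as CYP1A1 in Zizyphi Fructus low, rest on few reads.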
